A study of Arabidopsis thaliana with 18 samples.

Results

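Transcript levels were compared between roots and shoots of untreated Arabidopsis thaliana plants of the Wassilewskija accession Ws-2, from 3 control root arrays and 3 control shoot arrays of the 18 arrays in the series. The arrays were chosen by their sample titles, and all 22746 probe sets other than the AFFX control probe sets entered the comparison. The other 12 arrays came from potassium-starved and caesium-treated plants of the same accession, as shoots and as roots, with 3 arrays in each of those 4 groups. Per the labels, all plants had reached developmental stage 3.90, the medium was 0.8% agar with a low concentration of Murashige and Skoog salts and 1% sucrose, and growth was at 22 °C under 16 h of light per day with a humidity of 80%. The control plants carried no transgene or mutation named in the labels, the shoot samples held shoots and the root samples held all root material, so each signal is an average over the cell types of an organ. Nothing in the labels says that the replicates came from separate cultures, so the spread that the p-values rest on may be technical.

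Shoots hold the chloroplasts, in which the light-harvesting antennae and the photosystems capture light, the thylakoid ATP synthase makes ATP and the Calvin cycle fixes carbon. Most chloroplast proteins are encoded in the nucleus and imported, while the plastid's own genome encodes core subunits of the photosystems, the ATP synthase, the NDH complex, the ribosomes and the RNA polymerase. Roots hold non-green plastids, take up water and ions through root hairs and the epidermis, and seal their inner tissues with the Casparian strip and suberin.

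The values are the authors' MAS5 signals, on a linear scale of arbitrary units, and differences are given as log2 root minus log2 shoot with their standard errors. Called means a limma p under 0.05 after adjustment over all probe sets. Where the lower organ lies near the floor of an array, the size of a log2 difference is uncertain, and for genes with a mean signal under 10 in either organ the difference after adding 16 to every signal is given beside it. In a whole organ, fewer cells of a type and less RNA per cell cannot be told apart.

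The organs differed widely. Of 22746 probe sets, 5204 (22.9%) were called higher in roots and 3976 (17.5%) lower in roots, together 40.4%. The median difference over all probe sets was 0.08. Root and shoot arrays did not overlap for 51.7% of all probe sets. Of the probe sets lower in roots 46.4% differed at least 4-fold, against 33.4% of those higher in roots, and with 16 added the shares were 28.0% and 16.9%. Among probe sets lower in roots, 42.3% lay below the 40th percentile of every control root array, and among those higher in roots, 32.4% lay below it in every control shoot array.

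**Figure D1:**
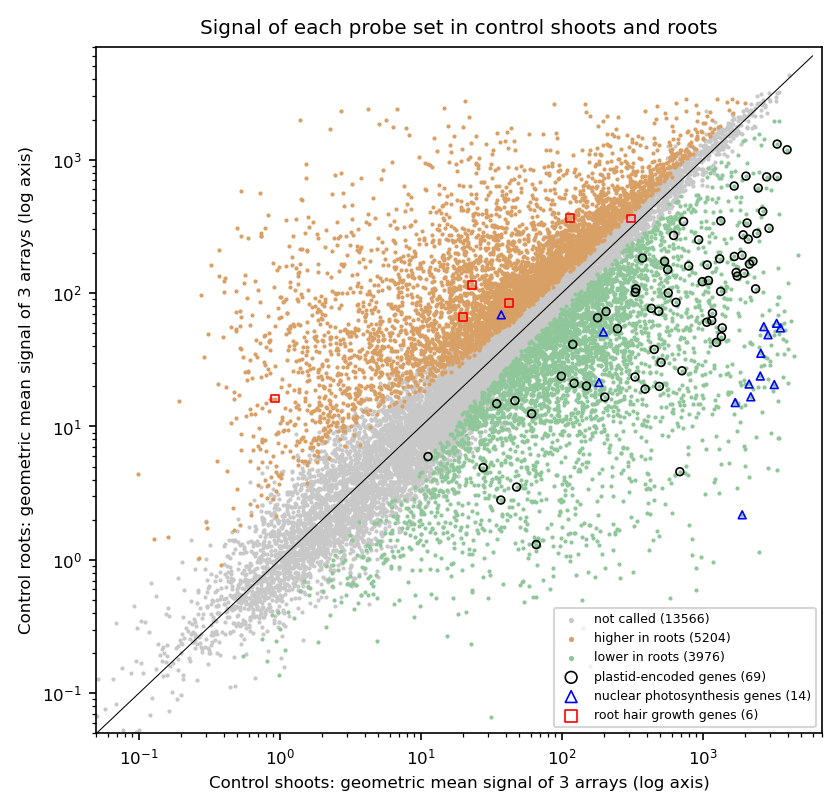
Geometric mean signal of each of 22746 probe sets over the 3 control shoot arrays (x, log axis) and the 3 control root arrays (y, log axis); colours mark the 5204 probe sets called higher in roots and the 3976 called lower, open symbols mark members of 3 sets of genes, and the line marks equal signals. All 69 plastid-encoded genes lie below the line, 13 of the 14 nuclear photosynthesis genes lie below it, and the root hair growth genes lie above it.

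Median signal was 39.9 to 42.2 on the control shoot arrays and 42.8 to 43.4 on the control root arrays. Arrays of the same organ correlated at r = 0.944 to 0.96 across probe sets, and root with shoot arrays at 0.725 to 0.753. The ratio of the 3' to the 5' actin control probe set, a measure of RNA integrity and labelling, was 3.26, 5.96 and 5.99 on the shoot arrays and 7.19, 5.41 and 5.74 on the root arrays, and its part in the results was not tested. The labels were checked against marker lists. The 7 of 27 green tissue markers with a named probe set summed to 15833, 17505 and 16920 on the shoot arrays and to 254, 231 and 361 on the root arrays. The 4 of 29 root markers with one, PYK10, EXPA7, EXPA18 and PRX72 (AT5G66390), summed to 203, 1253 and 329 on the shoot arrays and to 2561, 3302 and 3516 on the root arrays. Both sums separate the organs without overlap. On the second control shoot array PYK10 alone made 1200 of the root marker sum, and the third control root array had the highest green marker sum of the root arrays. None of the 8 flower and pollen markers or 11 seed markers was named on the array here.

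The largest differences on the shoot side were mostly genes of photosynthesis. LHCB4.2, an antenna protein of photosystem II, had signals of 1605, 2759 and 1554 in control shoots and of 1.66, 4.23 and 1.47 in control roots. Its difference was -9.77 ± 0.439 (SE, n = 3 arrays per organ, limma adjusted p = 1.35e-11), or -6.70 with 16 added. Its close relative LHCB4.1 was measured at 3437, 3650 and 3578 in shoots and 53.1, 46.1 and 67.5 in roots, a difference of -6.02 ± 0.206. LHCB4.3 was measured at 158, 185 and 210 against 20.0, 21.8 and 22.5 in roots (-3.10 ± 0.258). All 3 antenna genes were lower in roots, and each had every shoot array above every root array.

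Among 8 nuclear genes for photosystem, cytochrome and ATP synthase subunits, 7 were lower in roots and the median difference was -6.04, against 0.05 over all 13355 named genes, of which 36.0% were called. PSAE-1, a stromal subunit of photosystem I, stood at 3260, 3055 and 3324 in shoots and at 14.9, 13.4 and 43.8 in roots (-7.28 ± 0.509). PSBY and PSB27, which belong to photosystem II, differed by -6.74 ± 0.245 and -6.68 ± 0.248. The single exception was ATPC2, which encodes a gamma subunit of the chloroplast ATP synthase. ATPC2 had signals of 45.2, 32.1 and 35.4 in shoots and 75.9, 52.4 and 81.7 in roots, and was higher by 0.89 ± 0.212 (adjusted p = 0.00262).

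Carbon fixation followed the same direction. Phosphoribulokinase (PRK), which regenerates the substrate of Rubisco, had 2441, 1940 and 2212 in shoots and 12.4, 15.0 and 24.9 in roots (-7.03 ± 0.279). Sedoheptulose-bisphosphatase (SBPASE) differed by -6.81 ± 0.287 and Rubisco activase (RCA) by -5.81 ± 0.351. HPR, the peroxisomal hydroxypyruvate reductase of photorespiration, differed by -6.57 ± 0.297. RCA in roots was 40.5, 45.1 and 114, so that the third root array carried the highest value. The third root array was the brightest of the 3 root arrays for 13 of the 14 genes of the antenna, photosystem and Calvin cycle lists, whose median difference was -6.10 with it and -6.36 without it.

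Pigment synthesis lay mostly on the shoot side. Of 11 genes of chlorophyll and carotenoid synthesis, 10 were lower in roots and the median was -2.56. PORB, the light-dependent protochlorophyllide oxidoreductase, gave 2014, 1942 and 2000 in shoots and 15.9, 14.9 and 13.0 in roots (-7.09 ± 0.241). CHLM, which methylates magnesium protoporphyrin, kept a clear signal in roots, at 1200, 1080 and 1012 against 93.1, 81.1 and 90.2 (-3.64 ± 0.124), and HEME2, an earlier tetrapyrrole enzyme shared with heme synthesis, likewise stood at 68.9, 68.7 and 91.0 in roots (-3.36 ± 0.144). HEMA2, an isoform of glutamyl-tRNA reductase, the entry step of tetrapyrrole synthesis, was the only one higher in roots, by 0.55 ± 0.204 (adjusted p = 0.0397). HEMA2 was no longer called after quantile normalization (adjusted p = 0.0606), under a common median (0.0512), in a fit of the control arrays alone (0.0848), and when shoot array 2 (0.0676), shoot array 3 (0.177), root array 1 (0.0855) or root array 2 (0.15) was left out.

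Of 69 plastid-encoded genes measured, 64 were called lower in roots and none higher, with a median of -2.82. Their median signal was 1122, 598 and 859 on the shoot arrays and 96.0, 79.9 and 143 on the root arrays. The 10 NDH subunits (median -3.74), the 6 ATP synthase subunits (-3.66) and the 29 photosystem and cytochrome subunits (-3.27) were all called lower in roots. Of 19 ribosomal protein and RNA polymerase genes, 14 were called lower, with a median of -1.71, and the 5 genes not called (rpoB, rpoC2, rpl14, rps3 and rps19) all belonged to this last set. Whether the sets differ was not tested.

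Single plastid genes show the range. psbA, for the D1 protein of photosystem II, was 2520, 2276 and 2313 in shoots and 153, 34.2 and 238 in roots (-4.46 ± 0.528). ndhJ, for an NDH subunit, reached -7.23 ± 0.561 (-5.0 with 16 added) from 953, 465 and 732 in shoots and 3.11, 2.06 and 15.0 in roots. rps4, for a ribosomal protein, kept 371, 166 and 331 in roots beside 2376, 1188 and 2557 in shoots (-2.82 ± 0.338). The third root array was the brightest of the root arrays for 57 of the 69 plastid-encoded genes, and without it their median was -3.14. Its part in the difference between organs was not tested further.

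On the same side lay a list of plastid RNA editing and complex assembly factors. It also holds other thylakoid proteins, among them CaS, TROL and NdhL, so its count does not describe editing and assembly factors alone. Of its 30 genes, 24 were lower in roots, none was higher, and the median was -2.75. The calcium-sensing thylakoid protein CaS had 1181, 1228 and 788 in shoots and 9.09, 5.20 and 6.74 in roots (-7.26 ± 0.588, or -5.53 with 16 added). TROL, the thylakoid anchor of ferredoxin-NADP reductase, stood at 627, 554 and 615 against 1.9, 12.0 and 2.3 (-7.32 ± 0.704, or -4.87 with 16 added). NdhL, a nuclear-encoded subunit of the NDH complex, differed by -6.01 ± 0.251, or -4.61 with 16 added. The plastid division genes FTSZ2-1 and FTSZ2-2 were lower in roots, by -1.86 ± 0.302 and -2.32 ± 0.389.

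**Figure D2:**
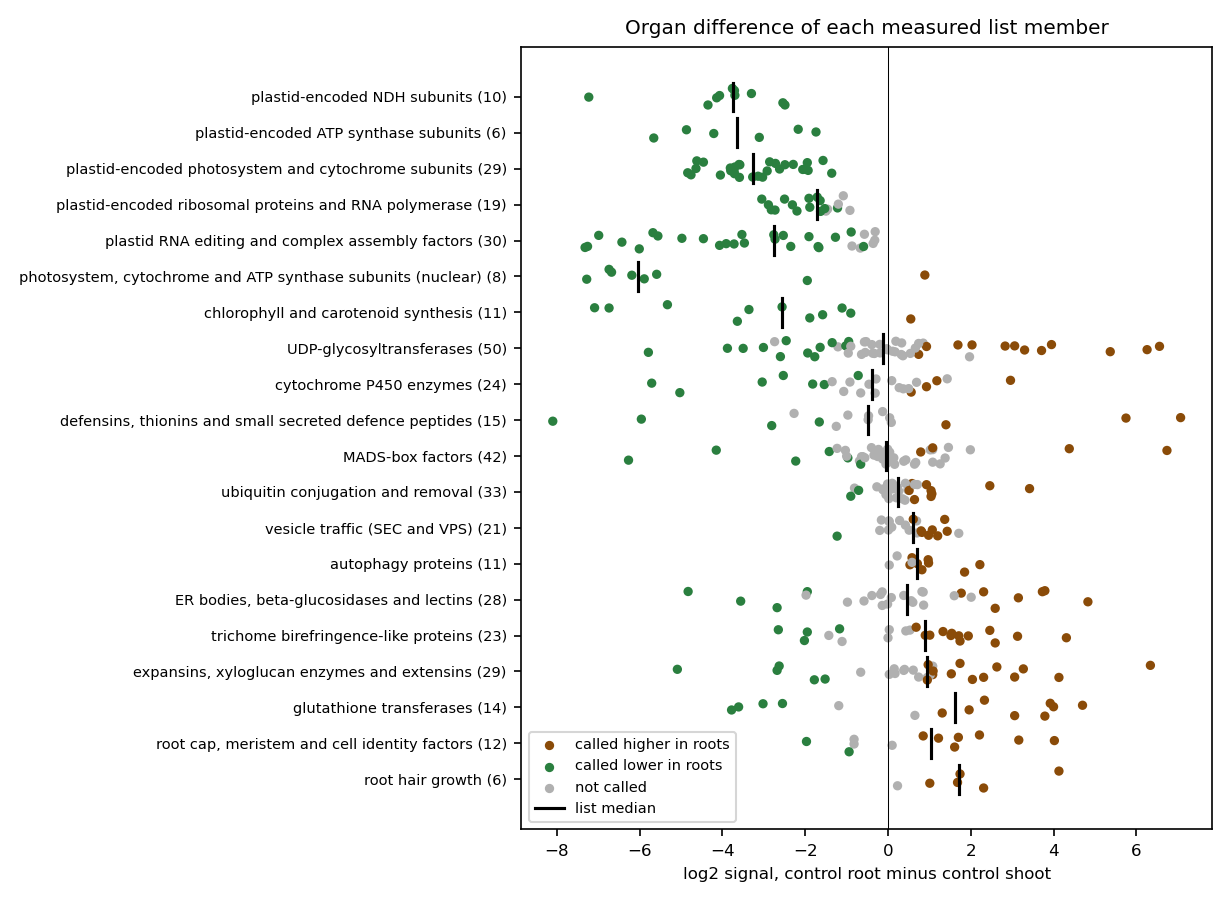
log2 difference between control roots and control shoots (x) for each measured member of 20 gene lists, with the number measured in parentheses; colours mark members called higher or lower in roots at an adjusted p under 0.05, and black bars the list medians. The medians of the photosynthesis and plastid lists lie left of 0, with ATPC2 (0.89) and HEMA2 (0.55) to the right of it, the glycosyltransferase and cytochrome P450 lists spread to both sides, and root hair genes lie to the right.

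Carbohydrate genes were lower in roots for 5 of 7 members of the starch and sucrose list and higher for none. The sucrose exporter SWEET11, which loads the phloem in leaves, had 819, 807 and 841 in shoots and 65.6, 49.2 and 59.9 in roots (-3.83 ± 0.203). The starch enzymes DPE1 and SBE2.2 differed by -2.50 ± 0.343 and -2.14 ± 0.236. Within the SWEET family of sugar transporters, 2 of 14 were higher in roots and 3 lower, and this share of 35.7% is that of named genes in general (36.0%). SWEET16, a vacuolar carrier, ran opposite to SWEET11, at 91.0, 93.2 and 72.6 in shoots and 308, 282 and 372 in roots (1.91 ± 0.248).

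Of 7 genes of stomata and trichomes, 4 were lower in roots and none higher, and 4 of the 7 lay below the 40th percentile on all control arrays. STOMAGEN, a secreted peptide that promotes stomatal development, had 123, 133 and 138 in shoots and 1.76, 0.825 and 0.931 in roots (-6.89 ± 0.428, or -3.10 with 16 added). FMA, a factor for guard cell identity, differed by -1.62 ± 0.368. With probe sets of low signal left out, 2 members of this list remained called, since fewer were tested. Of 6 leaf polarity and growth factors, 3 were lower in roots and 3 lay below the 40th percentile on all control arrays. Lower in roots were the YABBY genes YAB5 (57.3, 109 and 75.0 against 5.48, 5.79 and 8.59; -3.58 ± 0.335, or -2.06 with 16 added) and YAB3 (-3.20 ± 0.479, or -1.95). AT4G13840 (CER26), which takes part in the elongation of leaf wax precursors, had 329, 624 and 364 in shoots and 1.58, 11.3 and 3.57 in roots (-6.72 ± 0.857, or -4.38 with 16 added).

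None of 3 light perception and clock genes was called: the clock gene GI (GIGANTEA) had 142, 103 and 96.1 in shoots and 130, 157 and 194 in roots (0.50 ± 0.253, adjusted p = 0.132). The flower, pollen and seed lists gave 1 call among 6 genes, AMS, a tapetum factor, at 9.01, 12.0 and 12.8 in shoots and 6.54, 2.02 and 1.55 in roots, and its signals were below the 40th percentile of every control array. None of 6 histone genes was called either. HTB2, for a histone H2B, had 69.1, 120 and 85.4 in shoots and 74.3, 105 and 57.6 in roots (-0.22 ± 0.261, adjusted p = 0.543), and its arrays overlapped.

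The largest differences on the root side were carried by loci for which the annotation used here gives a locus code and no function. AT4G39675 had 0.871, 2.19 and 1.41 in shoots and 1897, 2034 and 2038 in roots, a difference of 10.48 ± 1.42 (adjusted p = 1.07e-05), or 6.84 with 16 added. AT3G01190 had 2.61, 3.04 and 1.44 in shoots and 1628, 1891 and 1607 in roots (9.56 ± 0.545, or 6.55 with 16 added). AT4G22212 had 36.7, 15.7 and 15.2 in shoots and 2565, 2662 and 3088 in roots (7.07 ± 0.916). Across these 15 genes the lowest signal on any root array was 639 and the highest on any shoot array was 46.3. Of the 15 genes, 1 has a further name in the annotation: AT3G13610 is F6'H1, the feruloyl-CoA hydroxylase that makes the coumarin scopoletin in roots. F6'H1 had 17.4, 20.0 and 1.39 in shoots and 1580, 1981 and 1640 in roots (7.78 ± 0.661).

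**Figure D3:**
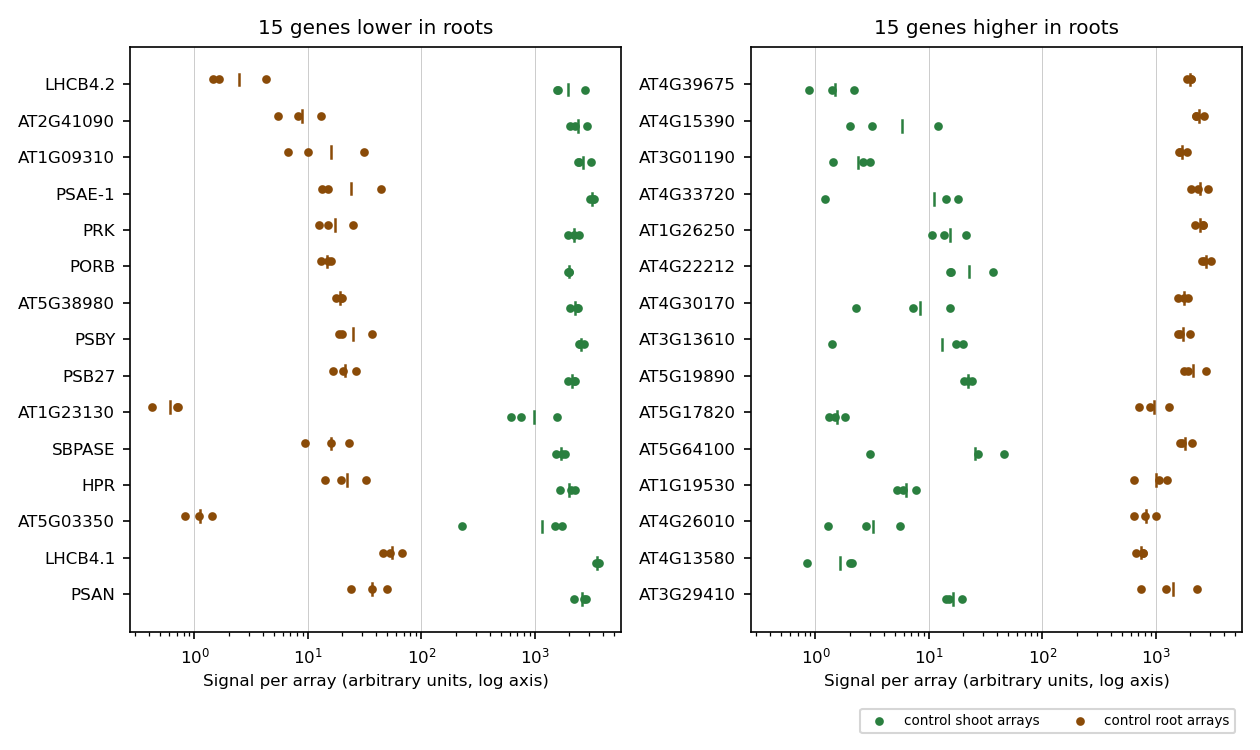
Signal on each control array (x, log axis) for the 15 genes with the largest difference in each direction by log2 signal with 16 added; dots are single arrays, green for shoots and brown for roots, and bars are the means of 3 arrays. The organs do not overlap for any of these genes, which the rule that chose them required, and AT5G03350 has 1 shoot array at 229 beside 1722 and 1499.

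Root hair genes were higher in roots for 5 of 6 members, with a median of 1.71 and none lower. The root hair expansins EXPA18 and EXPA7 loosen the wall of the growing hair. EXPA18 had 16.4, 30.1 and 24.8 in shoots and 108, 142 and 97.7 in roots (2.31 ± 0.265), and EXPA7 had 14.0, 23.1 and 24.4 against 69.4, 68.0 and 62.3 (1.74 ± 0.260). CSLD2, a cellulose synthase-like protein needed for normal hairs, had 146, 95.6 and 105 in shoots and 406, 338 and 355 in roots (1.68 ± 0.178). SCN1, a regulator of hair position, was the member not called (0.23 ± 0.163).

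Of 12 root cap, meristem and cell identity genes, 7 were higher in roots and 2 lower. Without root array 1, 5 of the 12 were called. UPB1, a bHLH factor that controls the onset of differentiation in the root tip, had 16.3, 13.8 and 8.38 in shoots and 119, 105 and 107 in roots (3.16 ± 0.481). LBD29, a lateral root factor downstream of auxin, had 2.48, 1.85 and 2.48 in shoots and 32.7, 34.1 and 43.9 in roots (4.02 ± 0.379, or 1.53 with 16 added). LHW, a factor of root vascular patterning, was higher in roots by 1.61 ± 0.271.

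Barrier genes were represented by GSO1, the receptor kinase that the Casparian strip needs to close, and FACT, which makes alkyl caffeates of the suberin layer. GSO1 had 32.0, 31.6 and 42.0 in shoots and 297, 334 and 305 in roots (3.16 ± 0.207), and FACT had 19.1, 39.9 and 27.7 against 209, 296 and 311 (3.28 ± 0.405). Both were well separated between organs.

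Among 7 class III peroxidases with a peroxidase name, 3 were higher in roots, none was lower and 4 were not called. Their called share of 42.9% is near the 36.0% of all named genes. Loci given by a locus code alone, among them most of the largest root-side differences, were not sorted by family. Any peroxidases among those loci are outside this count, which therefore does not describe the whole family. PRX72 (AT5G66390), linked to lignin deposition, had 0.436, 0.547 and 0.632 in shoots and 469, 776 and 535 in roots, the largest difference of the list at 10.09 ± 0.269 (5.17 with 16 added). Prx37 had 57.0, 60.3 and 20.6 in shoots and 1232, 1122 and 1345 in roots (4.89 ± 0.547). Of the 5 lignin and secondary wall genes 3 were higher in roots and 1 lower. Among the higher was HCT, a core enzyme of monolignol synthesis, at 612, 539 and 644 against 1245, 1086 and 1102 (0.94 ± 0.148). UGT72E2 and UGT72E3, which glucosylate monolignols and related phenylpropanoids, were higher in roots by 3.71 ± 0.204 and 6.56 ± 0.413. UGT72E3 had 1.93, 0.882 and 0.974 in shoots and 104, 102 and 132 in roots, so that with 16 added its difference was 2.89.

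ER bodies are compartments of Brassicaceae cells filled with beta-glucosidases that are held apart from their substrates. Of 28 genes of ER bodies, beta-glucosidases and jacalin lectins, 7 were higher in roots and 4 lower. This called share of 39.3% is near the 36.0% of all named genes. NAI2, needed to form ER bodies, had 24.8, 90.3 and 51.2 in shoots and 409, 952 and 780 in roots (3.79 ± 0.540). The lectin JAL34 had 125, 249 and 130 in shoots and 2078, 2115 and 2147 in roots (3.73 ± 0.231). PYK10, the main beta-glucosidase of root ER bodies, had 173, 1200 and 279 in shoots and 1915, 2316 and 2821 in roots (2.59 ± 0.884, adjusted p = 0.0268). Shoot array 2 was the highest shoot array for all 3 of these genes, and without it the PYK10 difference was 3.40 (adjusted p = 0.00682). The PYK10 call was lost without shoot array 1 (2.00, adjusted p = 0.121), shoot array 3 (2.35, 0.0817), root array 2 (2.59, 0.0584) or root array 3 (2.45, 0.0733). BGLU44 lay on the shoot side, at 909, 720 and 578 against 31.5, 25.2 and 20.6 (-4.83 ± 0.201).

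Wall enzymes were divided between the organs. Of 29 expansins, xyloglucan enzymes and extensins, 13 were higher in roots and 5 lower, and of 23 trichome birefringence-like proteins, which acetylate wall polysaccharides, 13 were higher and 4 lower. EXPA8 had 1077, 849 and 1060 in shoots and 36.2, 18.9 and 36.1 in roots (-5.09 ± 0.373), opposite to EXPA7 and EXPA18. XTH21, a xyloglucan endotransglucosylase, had 0.610, 0.861 and 1.07 in shoots and 182, 30.5 and 53.9 in roots (6.34 ± 0.581, or 2.36 with 16 added), and its root arrays spread widely. TBL39 was higher in roots at 425, 317 and 274 against 48.3, 52.5 and 87.1 (2.46 ± 0.236), while TBL45 was lower at 62.0, 53.1 and 55.5 against 295, 422 and 364 (-2.65 ± 0.292).

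Detoxification families also held members of both organs. Of 14 glutathione transferases, 8 were higher in roots and 4 lower. GSTU26 had 8.15, 17.0 and 24.4 in shoots and 467, 243 and 519 in roots (4.70 ± 0.451). GSTU20 and GSTU21 are next to each other on chromosome 1 and differed in opposite directions. GSTU20 had 890, 726 and 1407 in shoots and 142, 184 and 172 in roots (-2.55 ± 0.317), and GSTU21 had 6.84, 1.64 and 1.5 against 45.2, 32.2 and 40.4 (3.92 ± 0.551, or 1.52 with 16 added). Of 50 UDP-glycosyltransferases, 12 were higher in roots and 12 lower, a called share of 48.0% against 36.0% of all named genes. UGT71C1 had 3.36, 9.25 and 3.39 in shoots and 509, 367 and 256 in roots (6.26 ± 0.363, or 4.17 with 16 added). UGT88A1 had 522, 617 and 410 in shoots and 31.6, 36.2 and 36.0 in roots (-3.88 ± 0.205). The 24 cytochrome P450 genes of the list gave 4 higher and 7 lower, a called share of 45.8%.

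**Figure D4:**
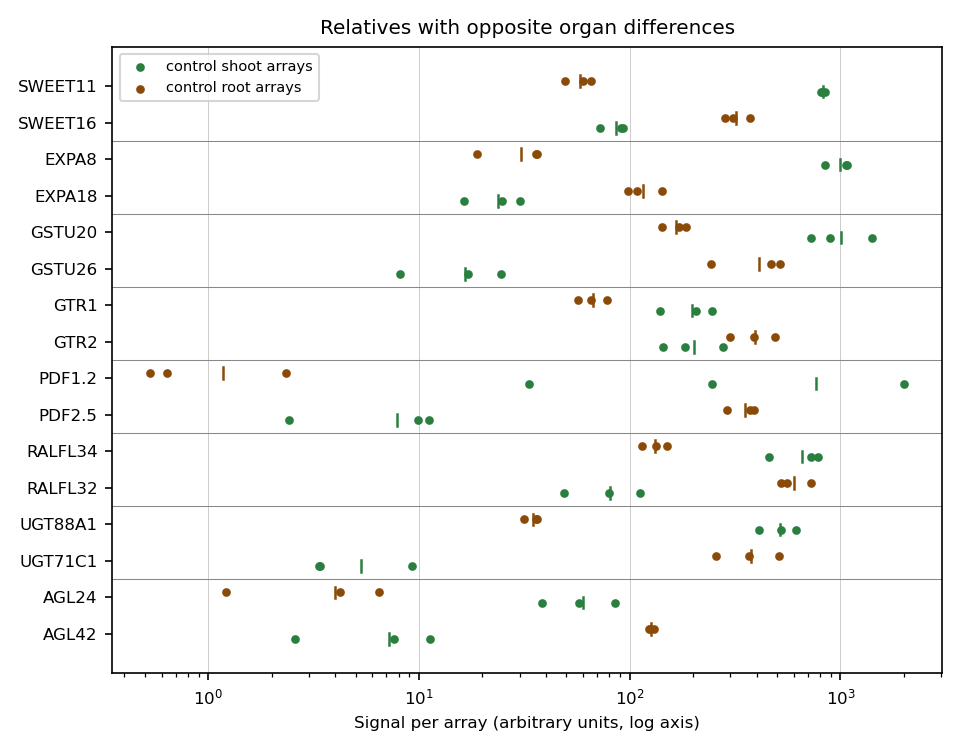
Signal on each control array (x, log axis) for 8 pairs of related genes, chosen after their values were seen; dots are single arrays, green for shoots and brown for roots, and bars are the means of 3 arrays. In each pair the upper gene is lower in roots and the lower gene is higher in roots, and the arrays of the organs overlap for none of the 16 genes, which were picked for such differences.

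Defence peptides split in the same manner, with 3 of 15 higher in roots and 4 lower. Their called share was 46.7%, against 36.0% of all named genes. The jasmonate-inducible defensins PDF1.2 and PDF1.2b were shoot genes of great spread: PDF1.2 had 247, 2008 and 33.2 in shoots and 2.34, 0.529 and 0.639 in roots (-8.10 ± 1.62, adjusted p = 0.000568, or -4.11 with 16 added). PDF1.2 and PDF1.2b are near-identical copies, and their probe sets may share target. PDF2.5 and PDF2.1, of another defensin branch, were root genes. PDF2.5 had 9.92, 2.42 and 11.2 in shoots and 390, 374 and 289 in roots (5.75 ± 0.413, or 3.95 with 16 added), and PDF2.1 had 0.443, 1.79 and 2.25 against 155, 194 and 145 (7.07 ± 0.555, or 3.36 with 16 added).

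Of 10 RALF-like signalling peptides, 3 were higher in roots and 4 lower. RALFL32 had 48.9, 112 and 79.6 in shoots and 725, 556 and 522 in roots (2.97 ± 0.524). RALFL34 had 460, 780 and 728 in shoots and 133, 150 and 114 in roots (-2.28 ± 0.248).

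Nitrogen and glucosinolate transport showed the same division among relatives. Of 10 nitrate and ammonium genes, most of them of the nitrate and peptide transporter family NPF, 3 were higher in roots and 3 lower. AT3G21670 (NPF6.4) had 664, 374 and 735 in shoots and 11.5, 17.3 and 26 in roots (-5.04 ± 0.338), while AT1G72125 (NPF5.13) was higher in roots by 1.66 ± 0.181. Of 6 glucosinolate genes, 3 were higher in roots and 2 lower, and 3 of the 6 were called without root array 1 or without shoot array 2. The glucosinolate importers GTR1 and GTR2 differed in direction: GTR1 had 246, 139 and 207 in shoots and 65.8, 77.9 and 56.8 in roots (-1.54 ± 0.289), and GTR2 had 144, 183 and 278 against 388, 490 and 299 (0.99 ± 0.226). Of 9 metal uptake genes, 3 were higher in roots and none lower, near the 36.0% called among all named genes. The 3 were the zinc transporters ZIP6 (1.03 ± 0.245) and ZIP9 (1.05 ± 0.251) and F6'H1. Of 6 potassium channels and exchangers 2 were called, a share of 33.3% that is near the 36.0% of all named genes. CHX16 was higher in roots (2.86 ± 0.802, or 1.39 with 16 added) and CHX20 of guard cells lower (-2.20 ± 0.346, or -0.77). Of the 6, 5 lay below the 40th percentile of all control arrays.

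In hormone pathways, 3 of 20 auxin genes were higher in roots and 7 lower, with a median of -0.06. These 10 calls among 20 genes stand beside a called share of 36.0% for all named genes. When shoot array 1 was left out, 5 of the 20 were called. Of the 20, 10 lay below the 40th percentile on all control arrays. GH3.17, which conjugates auxin to amino acids, had 31.0, 35.4 and 45.9 in shoots and 290, 314 and 343 in roots (3.09 ± 0.486). The auxin response repressor IAA29 had 210, 126 and 140 in shoots and 9.37, 8.73 and 11.2 in roots (-3.99 ± 0.263, or -2.73 with 16 added). The gibberellin receptor GID1B was higher in roots by 2.93 ± 0.276. GID1B was the 1 gene called of 4 measured on the list of gibberellin, brassinosteroid and ethylene synthesis. That is a smaller share than the 36.0% of all named genes, and the other 3 were not called. Of 2 measured cytokinin genes, none was called.

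Of 42 MADS-box transcription factors, 30 lay below the 40th percentile on all control arrays, 4 were higher in roots and 6 lower, a called share of 23.8% that is under the 36.0% of all named genes. AGL42 had 7.64, 2.57 and 11.3 in shoots and 124, 130 and 125 in roots (4.38 ± 0.407, or 2.64 with 16 added), and AGL21, which promotes lateral roots, had 0.558, 0.460 and 0.455 against 47.8, 49.4 and 60.9 (6.74 ± 0.399, or 2.05 with 16 added). AGL24, a promoter of flowering, had 38.4, 57.3 and 85.0 in shoots and 4.24, 6.48 and 1.22 in roots (-4.15 ± 0.626, or -1.89 with 16 added). Of 6 WRKY factors, 3 were higher in roots, with WRKY6 at 36.6, 22.1 and 10.4 against 74.1, 158 and 123 (2.47 ± 0.354). Of 20 bZIP factors, 7 were higher in roots and 2 lower, a called share of 45.0% against 36.0% of all named genes. Among the 7, bZIP58 had the largest difference (3.15 ± 0.437).

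Autophagy recycles cell contents through membrane vesicles. Of 11 autophagy genes, 8 were higher in roots and none lower, with a median of 0.71. Called members numbered 5 under a common median and 5 without root array 3. The membrane tag gene APG8A had 169, 189 and 165 in shoots and 588, 603 and 691 in roots (1.85 ± 0.269), ATG8H had 62.4, 43.1 and 39.7 against 222, 188 and 258 (2.22 ± 0.311), and the conjugating enzyme gene ATG3 differed by 0.98 ± 0.129. ATG8F was not called, at 1050, 871 and 707 against 826, 914 and 905 (0.03 ± 0.187). Of 21 vesicle traffic genes, 8 were higher in roots and 1 lower. Among 15 actin-binding NET and LIM proteins 7 were higher and none lower, and among 33 ubiquitin genes 9 were higher and 2 lower. The called shares were 42.9%, 46.7% and 33.3% in that order, against 36.0% of all named genes. The ubiquitin count fell from 11 to 7 without root array 3. The ubiquitin ligase PUB22 had the largest difference of its list, at 23.8, 18.7 and 14.1 in shoots and 184, 196 and 213 in roots (3.42 ± 0.285). Of 11 mitochondrial respiration genes, 4 were higher in roots and 2 lower. SDH1-2, the minor isoform of the succinate dehydrogenase flavoprotein, had 3.48, 0.808 and 4.05 in shoots and 52.0, 39.1 and 44.6 in roots (4.32 ± 0.485, or 1.70 with 16 added). The major isoform SDH1-1 had 226, 193 and 176 against 385, 373 and 376 (0.94 ± 0.161).

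The organ comparison was repeated on arrays that it does not share, those of the potassium-starved and of the caesium-treated plants. All comparisons came from the same fit and share its estimate of the spread per probe set, so their calls are not fully independent. Of the 5204 probe sets called higher in control roots, 3919 (75.3%) were called higher in potassium-starved roots than in potassium-starved shoots and 70 were called lower. The corresponding counts among caesium-treated plants were 3656 (70.3%) and 5. Of the 3976 called lower in control roots, 2843 (71.5%) were called lower and 30 higher in potassium-starved plants, and 3143 (79%) lower and 0 higher in caesium-treated plants. In those tests 26.5% of all probe sets were called higher in potassium-starved roots and 18.0% lower, and 19.5% higher and 16.4% lower in caesium-treated roots.

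A change of the organ difference itself was tested as an interaction, which uses the control arrays again. It was called for 1172 probe sets (5.15%) between potassium-starved and control plants and for 16 (0.0703%) between caesium-treated and control plants. For the 69 plastid-encoded genes the median organ difference was -2.82 in control, -2.10 in potassium-starved and -2.59 in caesium-treated plants, and 8 of them had a called change under potassium starvation and 0 under caesium. PORB differed by -7.09 in control and -4.42 in potassium-starved plants, a change of 2.67 ± 0.341 (SE, adjusted p = 0.000333). F6'H1 (AT3G13610) differed by 7.78 in control, 3.55 in potassium-starved and 3.67 in caesium-treated plants. The change was called under potassium starvation (adjusted p = 0.0157) and not under caesium (adjusted p = 0.107). With 16 added, the changes were -2.5 (limma adjusted p = 0.00151) and -2.48 (adjusted p = 0.0285), and both were called. PRX72 (AT5G66390) differed by 10.09, 9.33 and 9.86 in the same order, and neither change was called (adjusted p = 0.276 and 0.932).

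**Figure D5:**
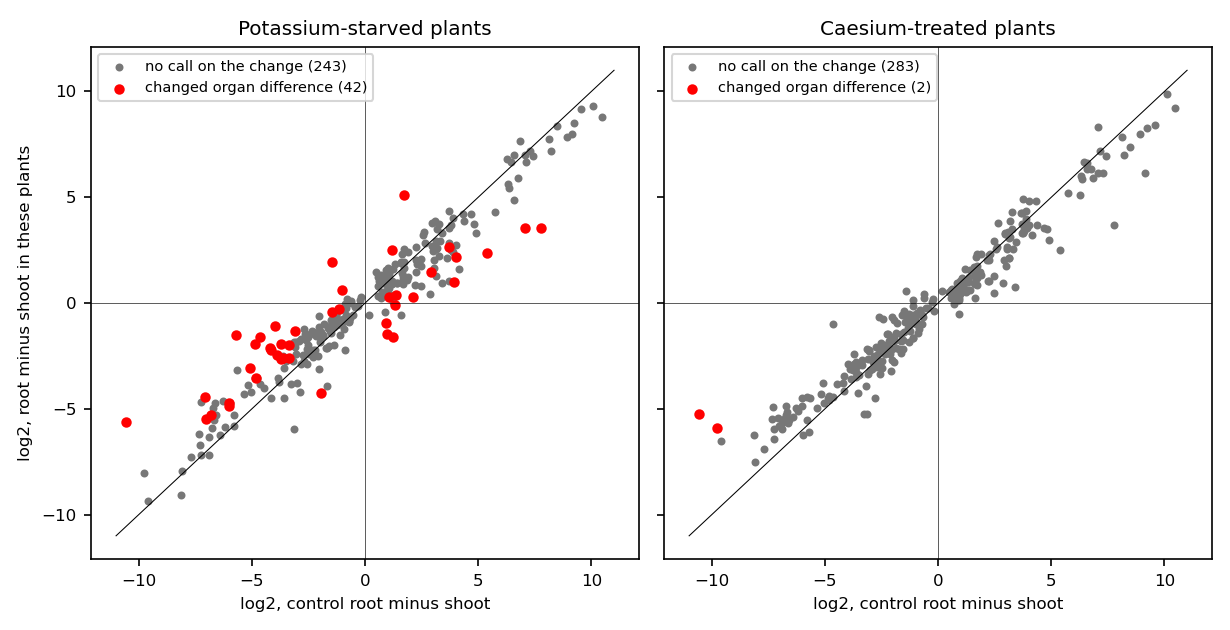
log2 root minus shoot difference of the 285 named genes in control plants (x) against the same difference in potassium-starved (left, y) and caesium-treated plants (right, y); the line marks equal differences. Red points are the 42 and 2 genes whose organ difference changed at an adjusted p under 0.05, and they reuse the control arrays of the x axis.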

How the data were processed

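For each array, an Affymetrix ATH1 array of 1 colour, the authors deposited an intensity for every probe set. The submitters' processing notes name MAS5. For MAS5, version and settings were not given in the sources used here, and no scanner files were used. Each deposited array had a mean near 100 after trimming 2% at each end, so the deposited values were already scaled to equal means, which a change in many bright genes can shift for all others. The deposited intensities were analysed as log2 values, without a pseudocount, a filter or another normalization.

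One coefficient per group was fitted over all 18 arrays by limma 3.58.1 in R 4.3.3 (lmFit, eBayes with a variance trend), and two-sided p-values were corrected over 22746 probe sets (Benjamini-Hochberg). The fit was tested on simulated data. In the platform annotation 13513 probe sets had 1 gene, 503 had several and 8730 had none, and names were updated through RefSeq genes of TAIR10.1, where 13436 matched. Of 3897 genes in the lists used, 746 (19.1%) had a named probe set, so counts cover those alone. A gene with several probe sets is represented by the probe set of highest mean over the 18 arrays. Genes named are the 15 largest called differences per direction by log2 signal with 16 added and no overlap between arrays, at most 4 called genes of a list in each direction (or the 2 with the smallest p), and markers. Members named beyond that rule were chosen after their values were seen. Groups, members and lists were chosen with earlier results of these data known. Alternatives were 16 added to signals, quantile normalization, a common median, a filter at the 40th percentile, the 6 control arrays alone, a replicate block, no variance trend, a test against a log2 difference of 1 and leaving out each control array. The number of arrays limits the precision.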

Additional observations from a re-analysis of the deposited data

Results flagged for a closer look

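The organ difference of 42 named genes differed between potassium-starved and control plants, by the interaction test of limma at an adjusted p under 0.05, and that of 2 between caesium-treated and control plants. Values are the organ difference (log2 root minus shoot) in the treated plants minus that in control plants, so the control arrays stand on one side of every value. All probe sets gave 5.15% and 0.0703% of such calls. Most named genes were picked for a large difference in the control arrays, which favours a smaller difference in other plants. Of the 42, 35 lay closer to 0 under potassium starvation, and that count cannot be read as an effect of the treatment.

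Among genes lower in control roots, 13 of photosynthesis, chlorophyll synthesis and the plastid genome had a less negative difference under potassium starvation. These were HEME2 (0.77), CHLM (1.06), LHCB4.1 (1.15), NdhL (1.29), SBPASE (1.54), PRK (1.55) and PORB (2.67) from the nucleus. From the plastid genome they were ndhC (1.07), ndhI (1.77), atpA (1.79), ndhA (1.92), atpF (2.09) and psaA (2.91). Outside these groups, a positive change was also called for TBL25 (0.88), CSLC04 (1.01), BGLU44 (1.31), iqd21 (1.39), UGT88A1 (1.41) and ATHSP22.0 (1.62), and for EXPA8 (2.02), IAA29 (2.93), BZIP34 (3.03), BZIP61 (3.38), CYP71B5 (4.2) and AT1G23130 (4.96). BZIP61 went from -1.44 to 1.94. With 16 added, changes were smaller: 1.04 for NdhL, 2.16 for IAA29, 0.72 for BZIP34, 1.95 for BZIP61 and 1.51 for CYP71B5. AT1G23130, whose control root signals were 0.696, 0.424 and 0.72, went from -10.55 in control to -5.60 in potassium-starved plants, or from -5.78 to -3.80 with 16 added, and that change was not called (1.98, limma adjusted p = 0.0563).

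Among genes higher in control roots, a negative change was called for AT3G13610 (-4.23), PDF2.1 (-3.52), UGT76B1 (-3.01), GSTU21 (-2.93), CML38 (-2.83), NDB2 (-2.41) and CYP71B23 (-1.89), and for bZIP44 (-1.84), GSTU22 (-1.82), GID1B (-1.46), WRKY47 (-1.41), UGT72E2 (-1.07), VPS60.1 (-0.99) and VPS2.1 (-0.78). The calcium sensor CML38 went from 1.22 to -1.61, the mitochondrial NAD(P)H dehydrogenase NDB2 from 0.96 to -1.45, and CYP71B23 from 0.93 to -0.96. In the other direction from these, AT1G68570 (-2.26), CYP71B29 (1.31) and JKD (3.42) had an organ difference that grew in size.

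Between caesium-treated and control plants, the change was AT1G23130 (5.30) and LHCB4.2 (3.88). Both have control root signals below the 40th percentile of the arrays. With 16 added, an alternative chosen after the data were seen, neither of these 2 changes was called (1.42, limma adjusted p = 0.469, and 1.59, adjusted p = 0.0878). On that scale a change under caesium was called for AT3G13610 (-2.48, adjusted p = 0.0285) and BZIP34 (0.76, adjusted p = 0.038). Over all probe sets, 16 changes under caesium were called in the main fit and 21 with 16 added. Of the 42 changes under potassium starvation, 37 were still called in the same direction with 16 added, and AT1G23130, GSTU22, PDF2.1, GID1B and UGT72E2 were not. Groups of 3 arrays were not tested for outlying samples.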

How the results depend on the processing

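The count of probe sets that differed between control roots and shoots was 9180, and it lay between 8519 and 9770 under the other normalizations, models and filters tried. The exception was a test against a log2 difference of 1 in place of 0, which by its construction asks for more and called 3606. Leaving out each control array in turn gave 8198 to 8371 calls, with 4567 to 4790 higher and 3581 to 3692 lower in roots. A common median moved the split from 5204 higher and 3976 lower to 4833 and 4298. With the replicate number as a block, 9770 probe sets were called, 5602 higher and 4168 lower. Root and shoot arrays with the same number deviated together at r = 0.18, 0.246 and 0.0498. Arrays with unlike numbers gave r from -0.206 to 0.0438, lower than each of these. The labels do not say that a number marks a shared culture, so the main fit did not take the numbers as pairs. Of 274 called genes that the naming rule gave, 227 kept their call and direction under every alternative in which they were tested and 47 lost the call under at least 1. The test against a log2 difference of 1 was run for the counts only. The direction of 1 gene changed: OLEO3, a seed oleosin that was not called (-0.29), ranged from -0.65 to 0.42 as single arrays were left out and was positive (0.42) without control shoot replicate 3. For 130 of the 274 the lower organ lay under the arrays' 40th percentile, so the size of those differences rests on dim signals. List medians near 0 have no settled sign: those of the glucosinolate (0.04), bHLH (0.04), glutamate receptor (0.05) and family 9 hydrolase (0.08) lists turned to between -0.04 and -0.01 under a common median, quantile normalization or 16 added, each under at least 1 of these.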

Other observations

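Further families held members called in either direction, at shares of 12.5% to 55.6% beside the 36.0% of all named genes, and no family is read as standing apart from it. The share was 37.9% for serine carboxypeptidase-like proteins, 55.6% for subtilases, 40% for tetraspanins and for IQ-domain proteins, 20.0% for family 9 glycosyl hydrolases and 12.5% for glutamate receptor-like channels. Of 29 serine carboxypeptidase-like proteins, a family that includes acyltransferases, 4 were higher in roots and 7 lower. scpl31 had 11.5, 13.3 and 23.5 in shoots and 181, 110 and 96.1 in roots (3.02 ± 0.389, limma adjusted p = 6.14e-06), and scpl35 had 195, 435 and 335 in shoots and 75.8, 92.3 and 82.8 in roots (-1.87 ± 0.250). Of 9 subtilases, which are secreted proteases, 2 were higher in roots and 3 lower. SBT4.12 had 11.4, 8.92 and 12.0 in shoots and 1038, 972 and 823 in roots (6.46 ± 0.274, or 5.16 with 16 added), while SBT1.3 had 164, 158 and 249 against 36.8, 40.4 and 33.8 (-2.34 ± 0.304). The organs did not overlap for any of these 4 genes.

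Of 15 tetraspanins, membrane proteins that organise other proteins, 4 were higher in roots and 2 lower. TET6 had 14.1, 9.21 and 3.12 in shoots and 129, 90.2 and 116 in roots (3.90 ± 0.436, or 2.38 with 16 added), and TET10 had 107, 93.1 and 163 against 38.1, 26.9 and 36.2 (-1.81 ± 0.229). Of 15 IQ-domain proteins, which bind calmodulin, 4 were higher in roots and 2 lower, and 3 of the 15 were called without control root replicate 1. IQD24 had 90.5, 126 and 82.6 in shoots and 7.13, 1.77 and 1.56 in roots (-5.18 ± 0.605, or -2.57 with 16 added). Of 15 family 9 glycosyl hydrolases, 2 were higher in roots and 1 lower, and 1 was called with low signals filtered out. GH9C1, expressed at root tips and hairs, had 8.94, 11.3 and 15.0 in shoots and 126, 205 and 130 in roots (3.70 ± 0.290). Of 8 glutamate receptor-like channels, 1 was called, GLR2.7, lower in roots by -3.15 ± 0.713, or -1.0 with 16 added.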
